A study of Mus musculus with 8 samples.

Results

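Transcripts of 8 genes of lactate and glucose metabolism were followed in mouse testis: the somatic forms Ldha, Ldhb, Gapdh and Eno1, and the germ cell forms Ldhc, Ldhal6b, Gapdhs and Eno4. They were taken by gene name from a deposited RNA-seq table of 38163 genes, and all 8 were found. The libraries came from testes of Alkbh5-null males (KO) and wild-type males (WT) at postnatal day 18 (P18) and postnatal day 12 (P12), with 2 libraries in each of 4 groups. Per the series design, P18 testes mainly hold pachytene and diplotene spermatocytes and P12 testes mainly leptotene and zygotene spermatocytes, and the stated aim was to explore what ALKBH5, an eraser of the RNA mark m6A, does in spermatogenesis. How the null allele was made, the strain, and whether a library is 1 animal or a pool are not given in the sources used here, so p-values measure only the spread between these libraries.

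Spermatocytes live on lactate that Sertoli cells make from glucose. Lactate dehydrogenase interconverts lactate and pyruvate as a tetramer. LDHB and LDHA are the subunits of heart and muscle type, while LDHC is the subunit made in spermatocytes, spermatids and sperm. Many glycolytic steps have a second, germ cell enzyme as well: GAPDHS replaces GAPDH on the fibrous sheath of the sperm tail, ENO4 is the enolase of the sperm flagellum, and LDHAL6B is a testis-expressed LDHA-like protein encoded without introns.

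Total counts lay between 58417668 and 71537841 per library, and 14429 to 15176 genes per library reached 1 FPKM (fragments scaled by exon length and library size). Alkbh5 itself went against the labels in 2 P18 libraries: it stood at 17.9 and 0.155 FPKM in libraries labelled KO P18, against 0.00985 and 9.07 FPKM in those labelled WT P18. At P12 it followed the labels, with 0.0564 and 0.0218 FPKM in KO and 10.2 and 17.8 FPKM in WT. In both P18 groups the library that goes against its label is replicate 1, and the P18 fits are also given without these 2 libraries. A list of 7 hepatocyte genes, led by Alb, summed to 202 and 190 FPKM in libraries labelled KO P18, against 4.35 and 3.76 FPKM in those labelled WT P18, and to between 2.76 and 3.89 FPKM at P12. Among 7 pachytene marker genes the sum was 939 and 81.4 FPKM in libraries labelled KO P18, 76.9 and 745 in those labelled WT P18, 25.6 and 31.0 in KO P12, and 59.5 and 91.4 in WT P12. Of 8 Sertoli cell genes the sum was 611 and 1448 FPKM in libraries labelled KO P18, 1189 and 742 in WT P18, 1299 and 1256 in KO P12, and 1208 and 1098 in WT P12. None of the pachytene or Sertoli genes was at 0 in any library. In whole tissue, fewer cells of a type and less RNA per cell cannot be told apart.

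Ldha and Ldhc lie side by side on chromosome 7 in GRCm38, both on the plus strand, with 5575 bases between the end of Ldha (ENSMUSG00000063229, chr7:46841475-46855627) and the start of Ldhc (ENSMUSG00000030851, chr7:46861203-46878142). Both had their highest values in the same 2 libraries, as did Eno4 (ENSMUSG00000048029, chr19:58943425-58971421, plus strand), so the bases ahead of their RefSeq starts are shown. Each is the plus strand, 5′ to 3′, from RefSeq on GRCm38.p6, limited to bases outside the annotated exons of the gene. Capitals mark, on either strand, the cAMP response element TGACGTCA, its short form TGACG and the GC box GGGCGG, where a full element also counts as the short form. The first Ldha window (chr7:46845554-46845803) ends at the base before the upstream start, and the second (chr7:46846832-46847081) at the base before the downstream start. The Ldhc window is chr7:46861013-46861202, and the Eno4 window is chr19:58943175-58943424. Ldhc has 2 RefSeq starts, and its window runs from base -250 to base -61 ahead of the upstream one, where annotated exon begins. The window of its downstream start, cut to 30 bases, is not shown.
Ldha, upstream start: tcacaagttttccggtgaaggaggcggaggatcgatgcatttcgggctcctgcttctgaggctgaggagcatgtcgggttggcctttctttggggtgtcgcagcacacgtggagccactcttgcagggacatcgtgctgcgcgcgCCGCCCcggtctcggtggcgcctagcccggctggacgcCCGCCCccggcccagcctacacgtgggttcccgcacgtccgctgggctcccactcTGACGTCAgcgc
Ldha, downstream start: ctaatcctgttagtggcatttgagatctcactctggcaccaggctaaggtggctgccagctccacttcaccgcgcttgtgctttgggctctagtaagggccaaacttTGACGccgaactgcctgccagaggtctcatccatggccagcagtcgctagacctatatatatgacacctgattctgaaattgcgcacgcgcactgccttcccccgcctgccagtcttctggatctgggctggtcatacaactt
Ldhc: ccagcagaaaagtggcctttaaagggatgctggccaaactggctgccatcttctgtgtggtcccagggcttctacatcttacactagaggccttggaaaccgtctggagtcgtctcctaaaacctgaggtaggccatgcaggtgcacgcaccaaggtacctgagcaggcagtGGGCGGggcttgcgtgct
Eno4: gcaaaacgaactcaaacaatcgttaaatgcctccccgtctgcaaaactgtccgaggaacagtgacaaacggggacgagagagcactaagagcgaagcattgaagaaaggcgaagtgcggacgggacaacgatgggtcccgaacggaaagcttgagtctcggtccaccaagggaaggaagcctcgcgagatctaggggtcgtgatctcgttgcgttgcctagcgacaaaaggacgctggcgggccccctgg

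The window at the upstream Ldha start held 1 full cAMP response element and 2 GC boxes, and the window at the downstream start held 1 short form. Of 32851 RefSeq windows of the same length, 1.55% held the full element, 17.8% the short form and 32.7% a GC box. The Ldhc window of 190 bases held 1 GC box and neither form of the cAMP response element. Windows cut to the same 190 bases held a GC box in 22.8% of cases. None of the capitalised motifs was in the Eno4 window. The core AACNG of MYB sites, searched on both strands and not capitalised, occurred 0 times and 2 times in the Ldha windows, 2 times in the Ldhc window and 4 times in the Eno4 window, and 74.2% of windows of 250 bases and 64.9% of windows of 190 bases held it. A match is a run of letters and not a measured binding site, and these data do not tell which Ldha start was used.

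Ldhc stood at 841 and 21.2 FPKM in libraries labelled KO P18, 16.5 and 672 in those labelled WT P18, 1.15 and 1.9 in KO P12, and 6.55 and 15.2 in WT P12. Ldha stood at 210 and 25.7 FPKM in libraries labelled KO P18, 23.1 and 164 in WT P18, 22.8 and 16.6 in KO P12, and 17.9 and 21.0 in WT P12. Both genes were high in the library labelled KO P18 replicate 1 and in WT P18 replicate 2, and the other P18 libraries lay within a few FPKM of the highest P12 library. Ldhb (ENSMUSG00000030246, chr6:142490249-142507957, minus strand) had the opposite order at P18, with 147 and 349 FPKM in libraries labelled KO P18, 380 and 221 in WT P18, 471 and 417 in KO P12, and 376 and 360 in WT P12. It was lowest in the same 2 libraries in which Ldhc and Ldha were highest.

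**Figure D1:**
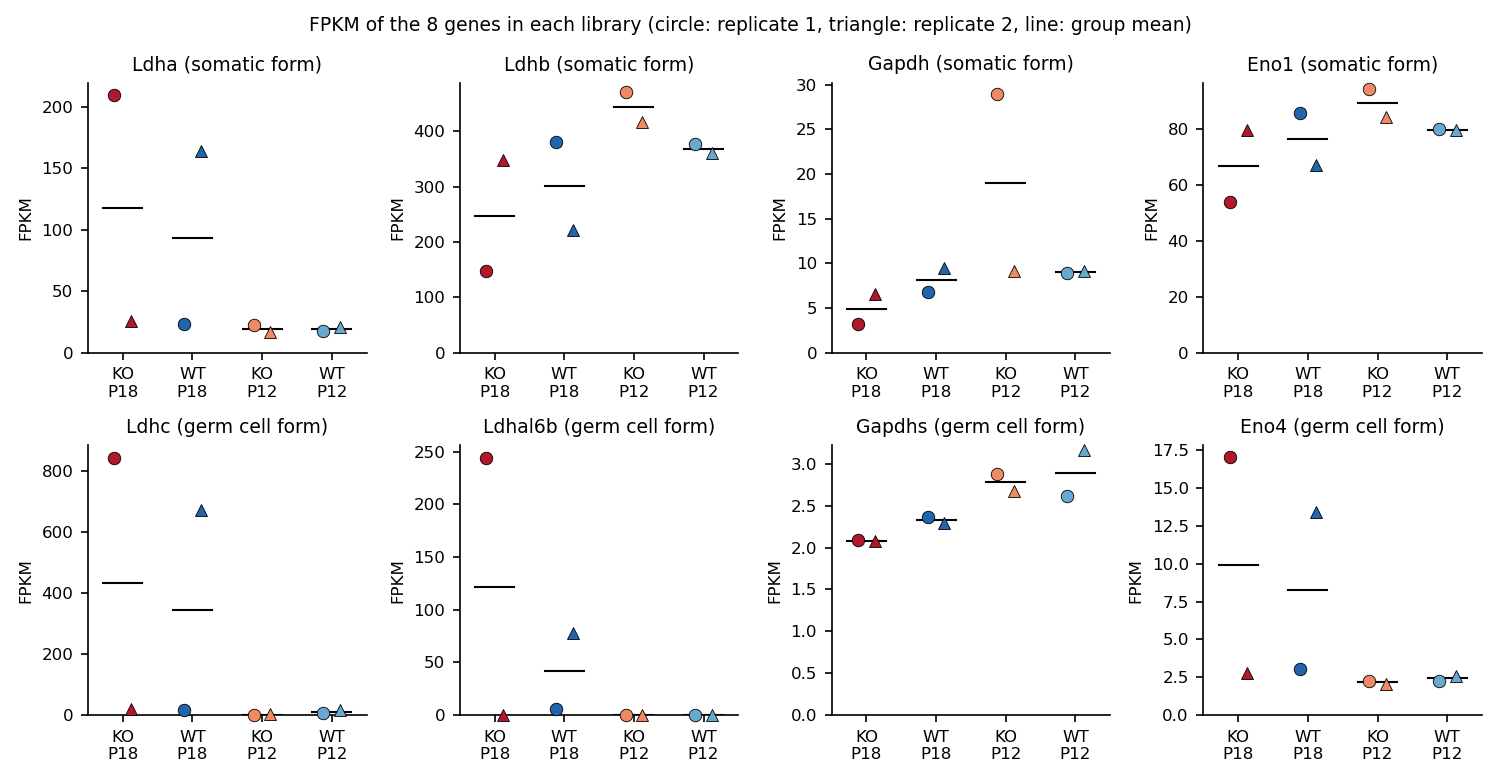
FPKM of each gene (y axis, own linear scale from 0) in the 2 libraries of each labelled group (x axis), with the group mean as a line. Ldhc, Ldha, Ldhal6b and Eno4 are high in the library labelled KO P18 replicate 1 (841 FPKM for Ldhc) and in WT P18 replicate 2 (672 FPKM), and Ldhb, at 147 and 221 FPKM, is lowest in those libraries.

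As a share of Ldhc, Ldha and Ldhb together, Ldhc made up 70.2% and 5.36% of FPKM in libraries labelled KO P18, 3.94% and 63.6% in those labelled WT P18, 0.232% and 0.435% in KO P12, and 1.64% and 3.84% in WT P12. Ldhb held 12.3% and 88.1% in libraries labelled KO P18, 90.6% and 20.9% in WT P18, 95.2% and 95.7% in KO P12, and 93.9% and 90.8% in WT P12. Ldhc was the main LDH transcript in 2 libraries and Ldhb in the other 6. The sum of the 3 was 1197 and 396 FPKM in libraries labelled KO P18, 420 and 1057 in WT P18, 495 and 436 in KO P12, and 401 and 396 in WT P12. FPKM here divides by the length of all annotated exons of a gene, which for Ldha is 1.87 times its principal transcript. Per kilobase of the principal transcript, the Ldhc share was 63.0% and 57.5% in the 2 high libraries, and the main form was the same in every library.

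**Figure D2:**
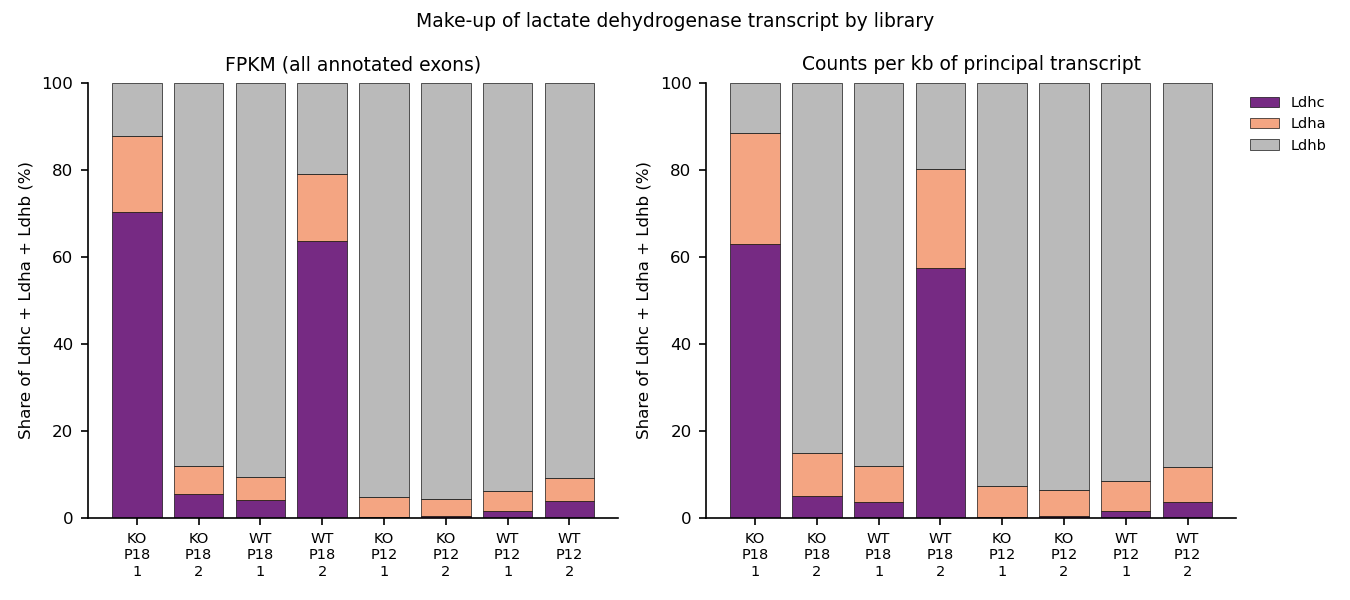
Share in percent of Ldhc, Ldha and Ldhb (y axis) in each library (x axis, group and replicate), on the FPKM scale at left and per kilobase of the principal transcript at right. Ldhc holds 70.2% and 63.6% of FPKM in 2 P18 libraries and at most 5.36% in the other 6.

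Ldhal6b (ENSMUSG00000101959, chr17:5417323-5418767, minus strand) had 0 counts in all 4 P12 libraries. It had 25623 and 0 counts in libraries labelled KO P18, which is 244 and 0 FPKM, and 564 and 7197 counts in those labelled WT P18, which is 5.79 and 77.5 FPKM. It passed the filter for testing through 3 P18 libraries only. A count of 0 allows at most 3 counts, or 0.0419 to 0.0514 CPM (counts scaled to library size) in these libraries, for counting error only. The gene overlaps the antisense gene Gm29050, which had 6595 and 951 counts in libraries labelled KO P18, 158 and 13172 in WT P18, 27 and 12 in KO P12, and 286 and 597 in WT P12. Ldhal6b also overlaps Tmem242, a protein-coding gene on the same strand with 1392 to 2128 counts, which strand cannot separate from it. These overlaps are of whole gene spans, introns included. The library kit marks strand, but whether counting used it is not stated, so the Ldhal6b and Gm29050 rows cannot be told apart with certainty either. The Ldhal6b row held 79.5% of the pair's counts in the library labelled KO P18 replicate 1 and 35.3% in WT P18 replicate 2. Both together were 488 and 13.3 CPM in libraries labelled KO P18, 11.5 and 344 in WT P18, 0.440 and 0.195 in KO P12, and 4.87 and 10.2 in WT P12, and fits below use this sum for Ldhal6b. The sum is high in the same 2 libraries as Ldhc.

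The reads of Gapdh (ENSMUSG00000057666, chr6:125161715-125165773, minus strand), the glyceraldehyde phosphate dehydrogenase of somatic cells, were spread over other rows. The table holds 71 near-identical copies, 69 of them pseudogenes, each matching at least 95% over at least 150 bases and 50% of the copy. The Gapdh row was 3.22 and 6.58 FPKM in libraries labelled KO P18, 6.85 and 9.51 in WT P18, 28.9 and 9.16 in KO P12, and 8.89 and 9.13 in WT P12. KO P12 replicate 1 stands apart from the other libraries. The row held only 2.99% to 9.04% of the counts of Gapdh and its copies, and the pseudogene Gm7336 alone had more counts than Gapdh in every library (13214 against 7910 in KO P12 replicate 1). Summed with its copies, Gapdh was 480 and 961 CPM in libraries labelled KO P18, 1017 and 700 in WT P18, 1428 and 1239 in KO P12, and 1222 and 1206 in WT P12. How a read matching several copies was counted is not given, so the sum can hold a read more than once. In the sum, KO P12 replicate 1 lies closer to the other P12 libraries, and the lowest libraries are the 2 with high Ldhc. Of Eno1 the row held 89.8% to 90.5% of the counts with its 3 copies, and of Ldha and Ldhb over 99% each. No copy by this rule was found for the 4 germ cell forms.

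**Figure D3:**
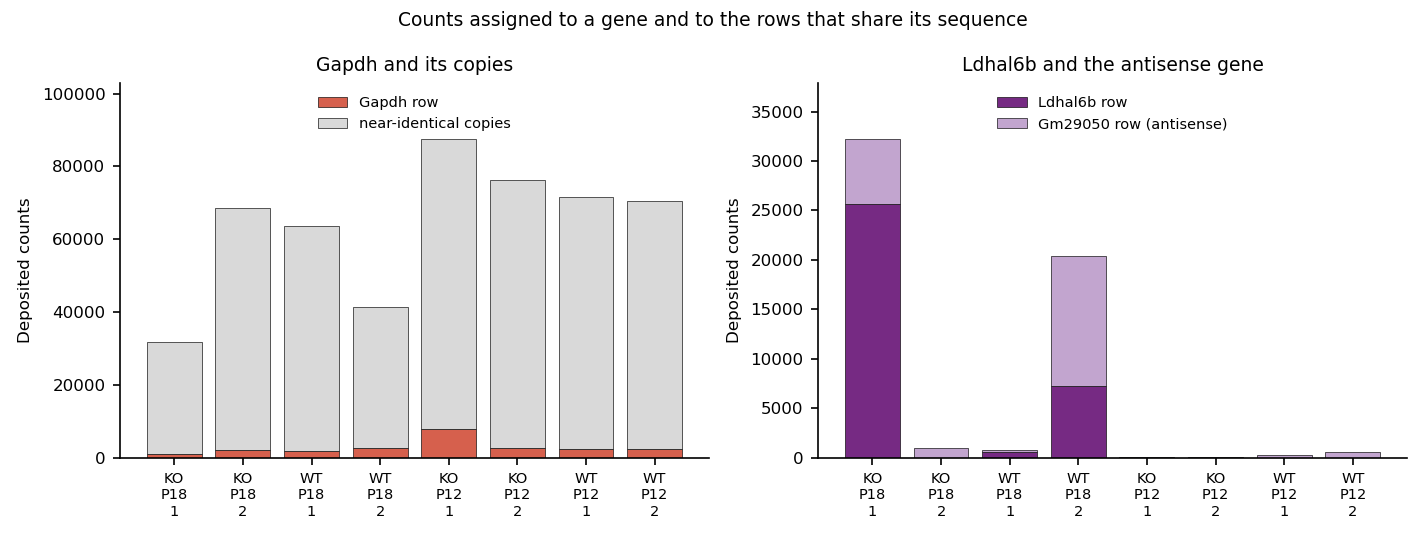
Deposited counts (y axis) by library (x axis, group and replicate): at left the Gapdh row below its near-identical copies, at right the Ldhal6b row below the antisense gene Gm29050. The Gapdh row is 2.99% to 9.04% of its bar, and the Ldhal6b row is 0 at P12.

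Eno1 (ENSMUSG00000063524, chr4:150236721-150248879, plus strand), the common enolase, stood at 53.7 and 79.8 FPKM in libraries labelled KO P18, 85.9 and 67.2 in WT P18, 94.4 and 84.4 in KO P12, and 79.9 and 79.5 in WT P12. Its lowest libraries, at 53.7 and 67.2 FPKM, are those with high Ldhc. Eno4 stood at 17.1 and 2.76 FPKM in libraries labelled KO P18, 3.03 and 13.4 in WT P18, 2.27 and 2.05 in KO P12, and 2.26 and 2.58 in WT P12. Its high libraries are those of Ldhc. Gapdhs (ENSMUSG00000061099, chr7:30729775-30743681, minus strand) was low everywhere, at 2.09 and 2.08 FPKM in libraries labelled KO P18, 2.36 and 2.29 in WT P18, 2.88 and 2.68 in KO P12, and 2.61 and 3.17 in WT P12. All 4 P18 libraries were below all 4 P12 libraries, whereas for Ldhc, Eno4 and the somatic form Ldha all 4 were above. Of all genes tested, 19.7% were lower and 8.68% higher at P18 without overlap. Gapdhs overlaps genes on the opposite strand (Tmem147os, with 911 to 1225 counts), so its 239 to 324 counts carry that uncertainty too, and Eno4 and Gapdh overlap Hspa12a and Iffo1 in the same way.

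Between genes, levels were compared as CPM per kilobase of the principal transcript. In the P12 libraries the order was Ldhb (470 to 612), Eno1 (229 to 271), then Ldha (33.7 to 46.1) and Gapdh (28.1 to 90.8), whose ranges overlap. With its copies, Gapdh was at 849 to 1005, above Ldhb. That sum can hold a read more than once, as the treatment of reads matching several copies is not given, so this rank is uncertain. The germ cell forms followed, Ldhc at 1.43 to 19.1, Gapdhs at 3.36 to 4.05 and Eno4 at 2.22 to 2.80, and Ldhal6b was at 0. The Ldhc range overlaps those of Gapdhs and Eno4, which do not overlap each other. In the P18 libraries labelled KO replicate 1 and WT replicate 2, Ldhc led at 1067 and 842, while in KO replicate 2 and WT replicate 1 it stood at 26.3 and 20.5, below Ldha at 51.8 and 46.5.

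At P12 the question is whether testes without ALKBH5 differ at the earlier age. Pachytene markers were not absent then, as their sum was 25.6 and 31.0 FPKM in KO and 59.5 and 91.4 FPKM in WT. Ldhc averaged 1.52 ± 0.530 FPKM in KO and 10.9 ± 6.14 FPKM in WT (SD, n = 2 each), and both KO libraries were below both WT libraries. Its log2 difference was -2.82 ± 0.43 (SE), or 0.141 of the WT level, and missed the threshold of 0.05 after Benjamini-Hochberg adjustment over 16702 genes (edgeR quasi-likelihood test, adjusted p = 0.0791). The sum of Ldhal6b and its antisense gene differed by -4.54 ± 0.52 on the log2 scale (edgeR adjusted p = 0.0525), lower in 2 of 2 KO libraries. As the Ldhal6b row was 0 in all 4 P12 libraries, this difference is that of Gm29050 counts alone and says nothing of Ldhal6b at P12. DESeq2 on the same libraries called both, with an adjusted p of 1.45e-13 for Ldhc and 2.28e-18 for the sum. With 1 library left out, edgeR adjusted p ran from 0.00137 to 0.182 for Ldhc, called in 1 of 4 such fits (without WT P12 replicate 1), and from 0.000860 to 0.138 for the sum, called in 2 of 4 (without either WT library). Each of these fits leaves a group of 1 library, which is assumed to vary like the other group of 2. Ldhc was not called without the filter (edgeR adjusted p = 0.611), by limma (adjusted p = 0.361 and 0.347), or in the edgeR fit of all 8 libraries, where the adjusted p was 1.0 for Ldhc and for the sum. By edgeR, 0 of the 7 members with counts at P12 passed an adjusted p of 0.05 and 3 had an unadjusted p under 0.05, where 0.0539% and 13.6% of the 16702 genes tested did so. DESeq2 called 2 of the 7, where it called 3.95% of all genes.

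The somatic forms and the other germ cell forms differed less at P12. Ldhb was higher in both KO libraries, by 0.28 ± 0.08 on the log2 scale, which edgeR did not call (adjusted p = 0.228) and DESeq2 did (adjusted p = 0.0349). The Gapdh row differed by 1.10 ± 0.46 (edgeR adjusted p = 0.362), and Gapdh with its copies by 0.16 ± 0.09 (edgeR adjusted p = 0.479). Without KO P12 replicate 2, which leaves KO P12 replicate 1 as the lone KO library and takes the spread from the 2 WT libraries, the Gapdh row was called (edgeR adjusted p = 0.00663), and without KO P12 replicate 1 its difference was 0.03. Eno1 differed by 0.18 ± 0.08, Ldha by 0.03 ± 0.16, Gapdhs by -0.04 ± 0.21 and Eno4 by -0.15 ± 0.19, with edgeR adjusted p-values between 0.396 and 0.964. In FPKM, KO and WT libraries did not overlap for 3 members that were higher in KO (Ldhb, Gapdh and Eno1) and 1 that was lower (Ldhc). Of all genes tested, 21.3% and 24.0% did not overlap in those directions. For the Gapdh row this rests on 9.16 FPKM in KO P12 replicate 2 against 9.13 in WT P12 replicate 2. The median log2 difference was 0.23 over the 4 somatic forms, -0.15 over the 3 germ cell forms with counts and 0.01 over all genes. Beside these values, 5 of the 7 pachytene markers were lower and 5 of the 8 Sertoli cell markers were higher in both KO P12 libraries, and their part in the result was not tested.

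Other genes of the pathway were read from 4 lists. Of 19 further glycolytic genes, 15 were tested at P12 and 0 passed, with 13 of them on the higher side and a median log2 difference of 0.09. Eno3, the muscle enolase, had the lowest p, with 11.3 and 11.2 FPKM in KO and 17.4 and 20.0 FPKM in WT (log2 difference -0.72 ± 0.11, edgeR adjusted p = 0.0791). Aldoa, the aldolase of muscle and most tissues, differed by 0.22 ± 0.07. Among 4 further germ cell metabolic genes 2 were tested, and both were lower without passing: Pdha2, the germ cell subunit of pyruvate dehydrogenase, by -0.97 ± 0.17 (edgeR adjusted p = 0.101), and Pgk2, the germ cell phosphoglycerate kinase, by -3.36 ± 1.08 (edgeR adjusted p = 0.258). In absolute terms Pgk2 stayed at or under 0.21 FPKM at P12. All 9 glucose and lactate transport genes were tested and 0 passed, with a median of -0.04. Slc2a3, a glucose transporter, had 4.49 and 3.79 FPKM in KO and 5.45 and 7.44 FPKM in WT (log2 difference -0.62 ± 0.16, edgeR adjusted p = 0.185), and the lowest p after it were for Bsg (-0.14 ± 0.07), the partner of lactate carriers, and Slc2a1 (0.23 ± 0.14). Of 10 genes that carry pyruvate into mitochondria or use it there, 0 passed and the median was 0.02. The lowest p were for Pdhb (-0.23 ± 0.07), Pdk4 (0.51 ± 0.16) and Mpc1 (-0.18 ± 0.11).

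At P18 the labels split the high libraries between the groups, so the fits had a wide error. The P18 libraries with high Ldhc are those with Alkbh5 at 17.9 and 9.07 FPKM. Those with low Ldhc had Alkbh5 at 0.155 and 0.00985 FPKM, and this match was not tested. In the fit of all 8 libraries, log2 differences between the libraries labelled KO P18 and WT P18 were 0.52 ± 1.95 for Ldhc, 0.51 ± 1.23 for Ldha, -0.23 ± 0.35 for Ldhb, 0.45 ± 1.05 for Eno4, 0.67 ± 1.88 for Ldhal6b with its antisense gene, -0.70 ± 0.57 for Gapdh, -0.12 ± 0.15 for Eno1 and -0.06 ± 0.26 for Gapdhs. Every edgeR adjusted p was 1.0, and 0 members were called, where 0.0% of all genes were called by edgeR, 189 had an unadjusted p under 0.05 and 0.455% were called by DESeq2. In FPKM, libraries of the groups did not overlap for the Gapdh row and Gapdhs, both lower in those labelled KO P18. Of all genes, 6.71% were lower without overlap. Gapdh with its copies overlapped between the groups in CPM and differed by -0.20 ± 0.27. Of the pathway lists, 0 of 15 glycolytic, 0 of 2 germ cell, 0 of 9 transport and 0 of 10 pyruvate genes passed.

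Leaving out the 2 libraries that go against their label leaves 1 library in each P18 group, which is then assumed to vary like the P12 groups. In that fit Ldhc differed by -5.13 ± 0.59, Ldha by -2.81 ± 0.24, Eno4 by -2.42 ± 0.22 and Ldhb by 0.51 ± 0.13, lower or higher in 1 of 1 KO library, with edgeR adjusted p of 0.00257, 0.00109, 0.00127 and 0.0254. Gapdh (-0.68 ± 0.69), Eno1 (0.10 ± 0.12) and Gapdhs (-0.29 ± 0.32) were not called, with edgeR adjusted p of at least 0.475. In the same fit 38.1% of all genes tested were called, so a call is common among all genes here.

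**Figure D4:**
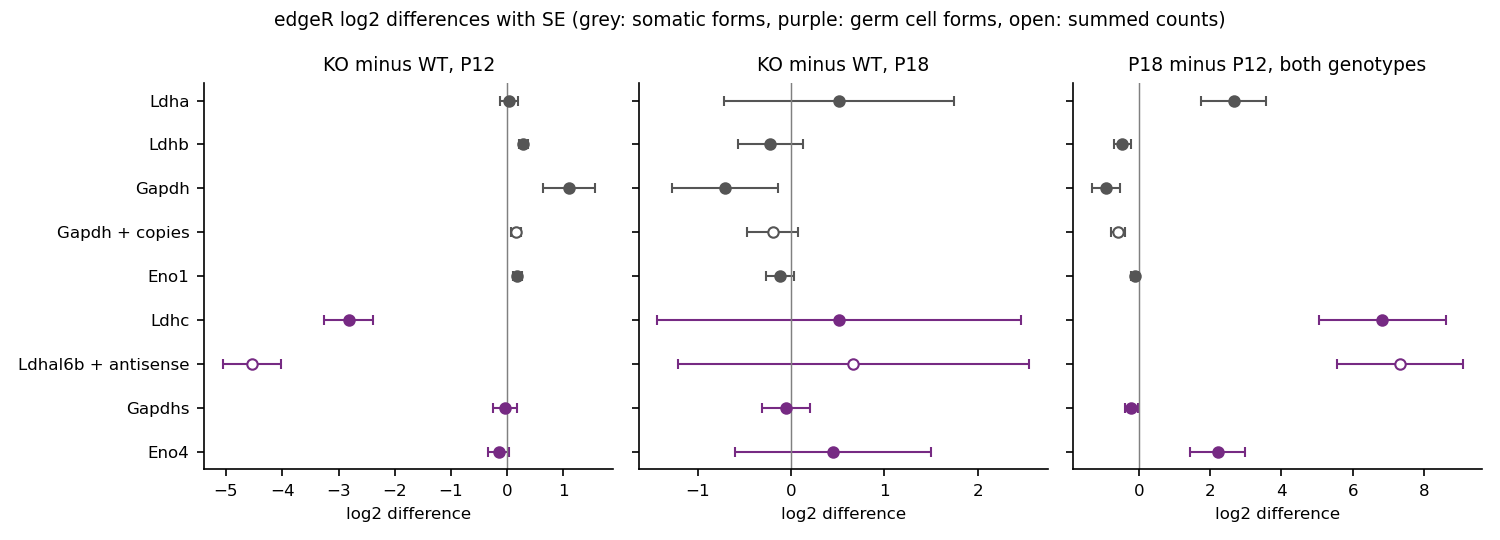
log2 difference with its SE (x axis) for each gene (y axis) in 3 comparisons by the labels, from edgeR fits. Ldhc lies at -2.82 for KO minus WT at P12, at 0.52 with an SE of 1.95 at P18, and at 6.82 for P18 minus P12.

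With age, Ldhc was 6.82 ± 1.78 on the log2 scale higher at P18 than at P12 over both genotypes, a fold of 113 (edgeR adjusted p = 0.139). The sum of Ldhal6b and its antisense gene was 7.33 ± 1.77 higher (adjusted p = 0.139), Ldha 2.66 ± 0.92 (adjusted p = 0.147) and Eno4 2.22 ± 0.77 (adjusted p = 0.147), each by edgeR. At P12 the Ldhal6b sum is Gm29050 counts alone, so its age difference is not that of Ldhal6b itself. All 4 P18 libraries were above all 4 P12 libraries for Ldhc, Ldha and Eno4, and below them for Gapdhs, where 8.68% of all genes were higher and 19.7% lower without overlap. Ldhb differed by -0.46 ± 0.25, Gapdh with its copies by -0.58 ± 0.19, Eno1 by -0.11 ± 0.11 and Gapdhs by -0.21 ± 0.18, with edgeR adjusted p of 0.247, 0.145, 0.498 and 0.444. By edgeR 0 of the 7 members tested on their own rows passed, where 0.0239% of all genes did. DESeq2 called Ldhc (adjusted p = 1.59e-05), Ldha (0.00437), Eno4 (0.0106) and the Ldhal6b sum (1.64e-06) as higher, where 17.4% of all genes were called higher and 25.3% in either direction. It also called Gapdh with its copies as lower (-0.55 on the log2 scale, DESeq2 adjusted p = 0.0374).

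The age differences rest on the make-up of the P18 groups. Without KO P18 replicate 2, which leaves 1 KO P18 library, edgeR called Ldhc, Ldha, Eno4, the Ldhal6b sum and Gapdh with its copies (adjusted p of 0.0413, 0.0428, 0.0413, 0.0414 and 0.0414), in a fit that called 27.4% of all genes. Without the 2 libraries that go against their label, the log2 differences were 4.97 ± 0.33 for Ldhc, 5.54 ± 0.32 for the Ldhal6b sum, 1.82 ± 0.13 for Ldha, 1.51 ± 0.13 for Eno4, -0.45 ± 0.08 for Ldhb and -0.54 ± 0.08 for Gapdh with its copies. All 6 were then called by edgeR (adjusted p of 0.000342, 0.000249, 0.000410, 0.000612, 0.00673 and 0.00453), as were 43.8% of all genes. In the pachytene marker list, with the sums given above, 6 of 7 genes had a higher fitted level at P18, and its part in these values was not tested.

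Within each label, Ldhc, Ldha and Eno4 were on the higher side at P18 and Ldhb and Gapdhs on the lower side. The Gapdh row differed by -1.83 in KO and -0.01 in WT. Gapdh with its copies was on the lower side in both labels, by -0.76 ± 0.27 in KO and -0.39 ± 0.27 in WT. Eno1 differed by -0.26 in KO and 0.05 in WT. In the libraries labelled KO, P18 against P12, Ldhc differed by 8.48 ± 2.71, Ldha by 2.89 ± 1.32, Eno4 by 2.51 ± 1.11 and Ldhb by -0.72 ± 0.35. In those labelled WT the differences were 5.16 ± 2.32, 2.43 ± 1.29, 1.92 ± 1.08 and -0.19 ± 0.35 for the same genes in that order. None passed in either label (lowest edgeR adjusted p 0.262 in KO and 0.614 in WT), where edgeR called 0.0% of all genes in each. For the difference between the 2 age effects, every member had an edgeR adjusted p of 1.0, and 0.0% of all genes were called. It was 3.32 ± 2.85 for Ldhc, -1.82 ± 0.81 for the Gapdh row and -0.37 ± 0.38 for Gapdh with its copies.

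The pathway lists moved unevenly with age. Of the 15 further glycolytic genes tested, 10 were on the higher side at P18 and 0 passed, with a median log2 difference of 0.50 against 0.04 over all genes. Pgam2, the muscle phosphoglycerate mutase, had 241 and 3.84 FPKM in libraries labelled KO P18, 3.90 and 132 in WT P18, 1.68 and 1.82 in KO P12, and 1.02 and 1.37 in WT P12 (log2 difference 6.23 ± 1.75, edgeR adjusted p = 0.139). Its high libraries are those of Ldhc. Gpi1, glucose phosphate isomerase, differed by -0.47 ± 0.16. Of the germ cell metabolic genes, Pgk2 had 58.7 and 0.38 FPKM in libraries labelled KO P18, 0.41 and 24.3 in WT P18, 0.00 and 0.04 in KO P12, and 0.21 and 0.19 in WT P12 (8.50 ± 2.32, edgeR adjusted p = 0.139). Pdha2 had 83.1 and 14.9 FPKM in libraries labelled KO P18, 13.2 and 77.3 in WT P18, 5.93 and 7.66 in KO P12, and 11.6 and 15.3 in WT P12 (2.54 ± 0.81, edgeR adjusted p = 0.143). Both were highest in the 2 libraries with high Ldhc.

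Of the 9 transport genes 7 were on the higher side at P18 and 0 passed. Slc2a3 stood at 229 and 10.6 FPKM in libraries labelled KO P18, 8.69 and 179 in WT P18, 4.49 and 3.79 in KO P12, and 5.45 and 7.44 in WT P12 (4.61 ± 1.37, edgeR adjusted p = 0.139). Emb, an ancillary protein of lactate carriers, stood at 6.07 and 10.1 FPKM in libraries labelled KO P18, 9.90 and 7.52 in WT P18, 3.49 and 1.97 in KO P12, and 2.47 and 2.57 in WT P12. Its difference of 1.80 ± 0.23 had the lowest adjusted p of the 4 lists (0.0803 by edgeR), and it was lower, not higher, in the libraries with high Ldhc. Slc16a3, the lactate exporter of glycolytic cells, differed by -0.75 ± 0.22 (edgeR adjusted p = 0.139). Of the 10 pyruvate genes 6 were on the higher side and 0 passed, with Ldhd (1.23 ± 0.33), which oxidises D-lactate, Dlat (1.37 ± 0.44) and Pdk2 (1.18 ± 0.42) of lowest p.

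Germ cell and somatic forms of one step were set against each other as the log2 ratio of FPKM + 0.1 in each library. Ldhc over Ldha was 2.00 and -0.28 in libraries labelled KO P18, -0.48 and 2.04 in WT P18, -4.20 and -3.07 in KO P12, and -1.44 and -0.46 in WT P12. It averaged 0.82 ± 1.39 at P18 and -2.29 ± 1.66 at P12 (SD, n = 4 each), a difference of 3.11 with an exact two-sided permutation p of 0.0571, and the ages overlap. Eno4 over Eno1 was -1.65 and -4.80 in libraries labelled KO P18, -4.78 and -2.31 in WT P18, -5.32 and -5.30 in KO P12, and -5.08 and -4.90 in WT P12. Its difference of 1.76 had an exact permutation p of 0.0286, the smallest this design can give, with 4 of 4 P18 libraries above the P12 libraries. Ldhal6b over Ldha differed by 4.90 (exact permutation p = 0.143), but with Ldhal6b at 0 at P12 the size is set by the pseudocount, and it was 2.5 with a pseudocount of 1 and 7.38 with 0.01. With the antisense gene counted it was 3.80 (exact permutation p = 0.0286, not adjusted). In the P12 libraries and in KO P18 replicate 2 that ratio rests on Gm29050 counts alone, so it is not a measure of Ldhal6b itself. Gapdhs over Gapdh averaged -1.43 ± 0.59 at P18 and -2.06 ± 0.82 at P12, a difference of 0.63 (exact permutation p = 0.371). This takes the Gapdh row alone, which holds a small part of the counts of Gapdh and its copies. With the copies counted, as a ratio of counts + 1 not scaled by length, it ran from -8.15 to -7.01 over the libraries. The difference between the ages was then 0.39 (exact permutation p = 0.2, not adjusted). Adjusted over the 4 ratios by Benjamini-Hochberg, the p-values were 0.114 for Ldhc over Ldha and for Eno4 over Eno1, 0.190 for Ldhal6b over Ldha and 0.371 for Gapdhs over Gapdh, so none passed. Without the 2 libraries that go against their label, 2 P18 libraries against 4 cannot give a p under 0.133.

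**Figure D5:**
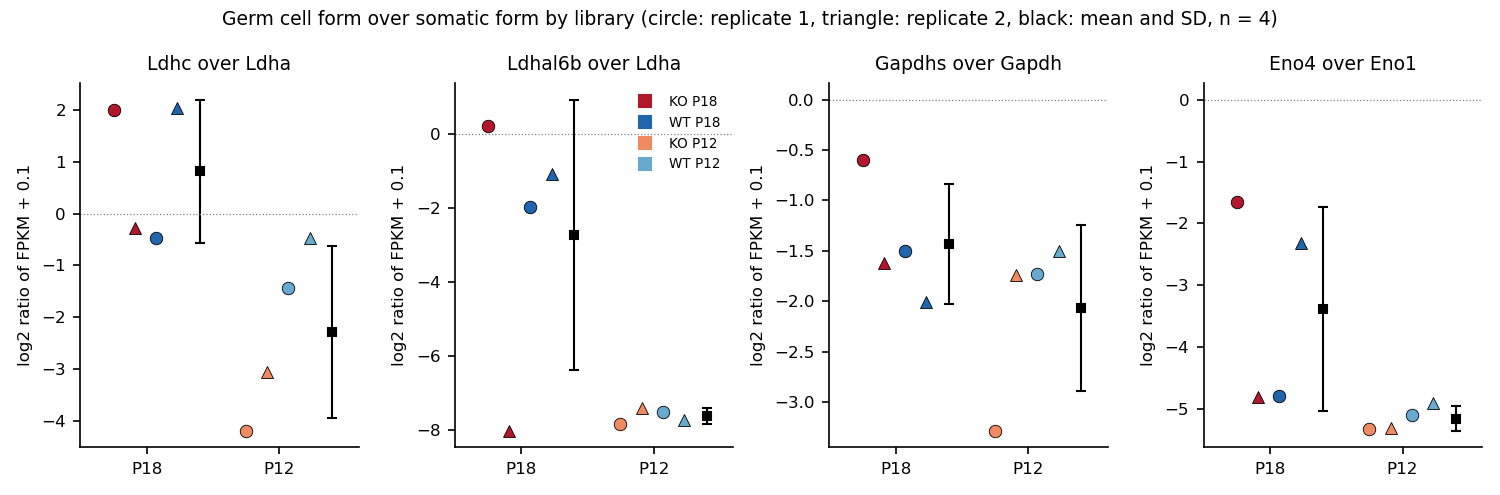
log2 ratio of FPKM + 0.1 of the germ cell form over the somatic form (y axis) in each library at P18 and P12 (x axis), with the mean and SD of 4 libraries in black. Ldhc over Ldha reaches 2.00 and 2.04 in 2 P18 libraries, and Gapdhs over Gapdh, by the Gapdh row alone, differs by 0.63 between the ages.

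Genes with the most similar pattern over the 8 libraries were listed by Pearson's r of log2(FPKM + 1), as a description. All points share the same libraries. For the genes other than Gapdh and Gapdhs, r is set largely by the 2 libraries with high Ldhc. Closest to Ldhc were Clgn, a chaperone of the germ cell endoplasmic reticulum, Rsph1, a radial spoke protein of cilia, and Smim24, each at 0.999. Clgn stood at 186 and 19.3 FPKM in libraries labelled KO P18, 16.6 and 140 in WT P18, 4.16 and 5.24 in KO P12, and 9.85 and 16.8 in WT P12. Closest to Ldha were Dnhd1 (0.998), Cfap70 and Fam50b (0.997 each), and closest to Eno4 were Dnhd1, Tcp10c and Fam50b (0.999 each). The nearest to Ldhal6b were Ntpcr (0.993), Slc39a3 (0.984) and Cnppd1 (0.983). For Ldhb they were Cnpy2 (0.998), Gstm2 and Fundc1 (0.997 each), and for Eno1 Arl6ip5 (0.997) and Acp2 (0.996). Gstm2, a glutathione transferase, stood at 124 and 307 FPKM in libraries labelled KO P18, 346 and 188 in WT P18, 406 and 376 in KO P12, and 313 and 322 in WT P12. Gapdh and Gapdhs had no gene as close: Uros (0.928), Mrpl4 (0.919) and Lsm7 (0.913) for Gapdh, and Son (0.954), Cdk2 (0.952) and Pigyl (0.945) for Gapdhs.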

How the data were processed

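Per the labels, RNA with an integrity number above 7 was selected on oligo(dT), second strands were marked with dUTP, and paired reads of 150 bases were sequenced. Tools listed in the submitters' processing notes are StringTie 2.1.6, cutadapt 1.9 and HISAT2 2.2.1, with the build GRCm38. The authors deposited FPKM (which here divides by all annotated exons, inferred from the values) and raw counts for each gene. The counting tool, strand setting and treatment of multi-mapped reads are not given in the sources used here. Start and end of 7 of the 8 genes are those of GENCODE M21. Of 2 rows named Aldoa, the one with more counts was used.

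Genes with at least 1 FPKM in at least 2 libraries were tested on the deposited counts (edgeR 4.0.16 quasi-likelihood F-test, TMM, R 4.3.3), with Benjamini-Hochberg adjustment over 16702 genes and a threshold of 0.05. All tests are two-sided. KO against WT at P12 used the 4 P12 libraries, and the other comparisons all 8. The SE is the log2 difference divided by the square root of F. Copies were found with BLAST 2.17.0. Alternatives were DESeq2 1.42.0, limma 3.58.1 on log2(FPKM + 1) and log2(FPKM + 0.1), other scaling, no filter, a replicate block, other libraries in the fit and each library left out, and, added after seeing the data, sums with copies or the antisense gene. The edgeR script was tested on simulated data. Genes named are Alkbh5, the 8 genes, the 3 of lowest p in each pathway list, and the 3 of highest r with a mean of at least 5 FPKM and no predicted name. Of these, 2 genes are not reported here. The genes, lists and tests were chosen with earlier results of these data known.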

Additional observations from a re-analysis of the deposited data

Results flagged for a closer look

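The Gapdh row of KO P12 replicate 1 stood at 28.9 FPKM, far above the other 3 P12 libraries (8.89 to 9.16 FPKM), with a gap of 0.987 of the range of those 4 libraries against a critical value of 0.829. It was the only such library among 16 sets of 4 libraries examined (8 genes at 2 ages), and chance flags about 1 in 20. With the 71 copies summed, the same library was at 1428 CPM and the other P12 libraries at 1206 to 1239.

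By FPKM, the Gapdh row was also higher in both KO libraries than in both WT libraries at P12. At P18 it was lower in both by the labels. Of all genes tested, 21.3% were higher at P12 and 6.71% lower at P18 without overlap. The P12 order rests on 9.16 FPKM in KO P12 replicate 2 against 9.13 in WT P12 replicate 2, and in CPM it reversed (40.86 against 40.95). With the copies summed, the P18 libraries overlapped, at 480 and 961 CPM in KO and 1017 and 700 in WT. The genotype by age term of the row was -1.82 on the log2 scale and missed the threshold (edgeR adjusted p = 1.0), and -0.37 with the copies summed (edgeR adjusted p = 1.0).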

How the results depend on the processing

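Calls over all genes depended on the tool. For KO against WT at P12, edgeR called 9 genes (0 higher, 9 lower), against 659 by DESeq2 (118 higher, 541 lower), 439 with the replicate block, 0 in the fit of all 8 libraries, 0 without the filter, 0 by limma with either pseudocount, and 6 to 207 with 1 library left out. At P18, edgeR called 0 genes, DESeq2 76, limma 27 with pseudocount 1 and 2 with pseudocount 0.1. For P18 against P12, edgeR called 0 genes in WT (DESeq2 408), 0 in KO (DESeq2 2381, no filter 5, limma 31 and 4) and 4 over both genotypes (DESeq2 4227, limma 23 and 1, replicate block 0, and 0 to 4570 with 1 library left out, the highest without KO P18 replicate 2). The interaction had 0, 45 by DESeq2 and 7 by limma with pseudocount 1. Without the 2 libraries that go against their label the counts were 6357 at P18, 7507 in WT, 1806 in KO, 7308 over both genotypes and 2304 for the interaction. Limma on FPKM moved the median of all genes to -0.13 for P18 against P12 in KO, from 0.02 in edgeR.

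Replicate numbers of the groups share only a number: replicate differences correlated at -0.00450 between KO P12 and WT P12 and at -0.91 between the libraries labelled KO P18 and WT P18, and the other 4 pairs of groups ran from -0.30 to 0.30. With the replicate block Ldhc at P12 was called (-2.75, edgeR adjusted p = 5.44e-06).

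Without the 2 libraries that go against their label, the P18 differences changed sign for Ldha (-2.81), Ldhb (0.51), Eno1 (0.10), Ldhc (-5.13) and Eno4 (-2.42). With 1 library left out, the P18 log2 difference ranged from -4.16 to 5.03 for Ldhc, -1.99 to 2.65 for Ldha, -1.69 to 2.00 for Eno4, -0.75 to 0.16 for Ldhb and -0.24 to 0.10 for Gapdhs, and at P12 from -0.22 to 0.23 for Ldha and -0.17 to 0.10 for Gapdhs. The Eno4 over Eno1 ratio was 1.59 (exact permutation p = 0.133, the smallest possible) without the 2 libraries and 1.18 to 2.24 with 1 left out, where 4 against 3 libraries cannot pass. Ldhal6b over Ldha was 2.5 to 7.38 over the pseudocounts. It was 3.80 with the antisense gene counted (exact permutation p = 0.0286, not adjusted over the ratios), where the P12 counts are those of Gm29050 alone. Other values of the 8 genes kept their direction under the alternatives that left out no single library, and the causes of the changes were not tested. The Ldhal6b row had 0 counts in all 4 P12 libraries, while the overlapping Gm29050 row had 12 to 597. How reads were split between these rows is not known, so the 0 counts cannot be read as absence. Groups of 2 libraries limit every comparison.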
